A study of Homo sapiens with 24 samples.

Results

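The 46 genes described here encode proteins of the centromere, the kinetochore and the spindle assembly checkpoint, and they were taken from a list of gene names that sets no threshold on a measured value, drawn up with earlier results of these data known. Of the 46, 45 had a probe set of their own among the 19775 genes with one. CENPP was covered only by a probe set that also names another gene, so it has no value here. Each gene was represented by its probe set with the highest mean log2 signal over the 24 arrays, and 19 of the 45 had more than 1 probe set. The data come from 2 human acute myeloid leukemia cell lines, MV4-11 and MOLM-14, with 3 biological replicates for each of 4 treatments. The treatments were ABT-869 (3 nM, an inhibitor of FLT3 and other receptor tyrosine kinases), SAHA (6 µM, a histone deacetylase inhibitor), the combination of both drugs, and DMSO, all for 24 h. Whether the combination used these same doses is not stated again. All groups carry the internal tandem duplication of FLT3 (FLT3-ITD). MV4-11 has only the mutated allele, whereas a wild-type allele is present beside it in MOLM-14, and each is a single established line.

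The kinetochore is the protein assembly that forms on the centromere of each chromosome and binds spindle microtubules in mitosis. It is built on nucleosomes that hold the histone variant CENP-A, through an inner constitutive network (CENP proteins), and outward to the Mis12, KNL1 and Ndc80 complexes, the last of which grips microtubules. Kinetochores that are not attached load checkpoint proteins (BUB and MAD proteins and the kinase TTK), which hold back anaphase, while the chromosomal passenger complex around Aurora B corrects wrong attachments. Many of these genes are transcribed late in the cell cycle. In human cells, part of this timing runs through the cell cycle homology element, TTTGAA, which the MuvB core of the DREAM complex binds, often beside CCAAT boxes bound by NF-Y.

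Promoters from RefSeq (GRCh38.p14, 250 bases before to 50 after a transcription start) were found for 37 of the 46 members, as 43 promoters. TTTGAA, searched on both strands, was in 18 of the 43 (41.9%), against 15.2% of all 35116 promoters of the same length. CCAAT, also on both strands, was in 29 of the 43 (67.4%), against 34.6% of all, and both letter runs were in 12 (27.9%), against 5.9%. Of the 21 members with a promoter that fell with the combination in MV4-11, 12 (57.1%) had TTTGAA, against 5 of 15 (33.3%) measured members that did not pass. With the combination in MOLM-14 the shares were 7 of 16 (43.8%) among members that fell and 10 of 19 (52.6%) among those that did not pass. For CCAAT the shares in MV4-11 were 15 of 21 (71.4%) and 9 of 15 (60%). In MOLM-14 those for CCAAT were 12 of 16 (75%) and 12 of 19 (63.2%). These are counts of letters, given as a description, and a link between either letter run and the falls was not tested. With the combination in MV4-11, CENPE and CENPJ fell although their promoters hold neither letter run. OIP5, CENPK, CENPU, BUB1, AURKB, SKA2 and SGO2 fell there with CCAAT but without TTTGAA. CENPC, ZW10 and INCENP hold both letter runs and were not called there. The 120 bases before the start are shown for 4 members that fell with the combination in MV4-11 and hold TTTGAA (HJURP, CDCA8, CENPA and BUB1B), and for 2 that lack both letter runs, DSN1, which fell furthest in MOLM-14 after CENPK, and MAD1L1, which rose there. Capitals mark TTTGAA and CCAAT in either orientation (TTCAAA and ATTGG on the other strand), and in CDCA8 TTTGAA shares its last letter with ATTGG.
HJURP: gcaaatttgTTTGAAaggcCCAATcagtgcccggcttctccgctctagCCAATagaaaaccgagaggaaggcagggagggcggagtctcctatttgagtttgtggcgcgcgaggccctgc
CDCA8: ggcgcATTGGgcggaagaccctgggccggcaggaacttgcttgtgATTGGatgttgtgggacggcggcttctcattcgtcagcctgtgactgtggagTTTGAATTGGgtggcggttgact
CENPA: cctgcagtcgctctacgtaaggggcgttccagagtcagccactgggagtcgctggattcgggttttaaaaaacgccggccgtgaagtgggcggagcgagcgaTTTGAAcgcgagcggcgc
BUB1B: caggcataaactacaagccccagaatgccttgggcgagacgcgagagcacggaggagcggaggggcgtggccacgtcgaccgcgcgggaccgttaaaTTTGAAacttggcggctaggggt
DSN1: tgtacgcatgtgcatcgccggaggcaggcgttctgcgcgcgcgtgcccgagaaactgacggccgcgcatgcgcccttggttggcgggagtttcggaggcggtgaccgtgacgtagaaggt
MAD1L1: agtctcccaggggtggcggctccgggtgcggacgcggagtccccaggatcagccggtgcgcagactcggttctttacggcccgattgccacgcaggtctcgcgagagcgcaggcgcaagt
The windows lie at chr2:233854536-233854655 (minus strand) for HJURP, chr1:37692396-37692515 (plus strand) for CDCA8, chr2:26785936-26786055 (plus strand) for CENPA, chr15:40160949-40161068 (plus strand) for BUB1B, chr20:36773764-36773883 (minus strand) for DSN1 and chr7:2232946-2233065 (minus strand) for MAD1L1. Each is written 5′ to 3′ in the direction of its gene, directly upstream of the annotated start.

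The signal of an array is a linear intensity whose trimmed mean, without 2% of values at each end, was 500.1 on every array. Of 54675 probe sets, 54613 were tested after 62 controls were left out, and a probe set was called lower or higher at an adjusted p under 0.05 from limma. Deviations of an array from the mean of its group were taken over the probe sets with a mean log2 signal above the median. Their SD was over 0.3 for 5 arrays, namely ABT-869 replicate 2 and combination replicates 2 and 3 of MV4-11 and combination replicate 1 and DMSO replicate 3 of MOLM-14. Of 9 listed markers of myeloid leukemia lines 7 were measured, and FLT3 (10510 to 16740) and LYZ (10940 to 18700) were bright on all arrays, whereas CD14, a monocyte marker, was dim (4.1 to 54.6). MEIS1 (1230 to 1983), SPI1 (920.3 to 2986), CSF1R (428.8 to 1125) and MPO (210.6 to 3109) lay between. Against DMSO in MV4-11, 2 of the 7 were higher with ABT-869, 1 was higher with SAHA, and 1 was lower and 1 higher with the combination. In MOLM-14, 1 was lower with SAHA and 1 with the combination. Of 16 measured markers of other cell types none was called with any treatment, and their summed signal on an array was 1864 to 2357 with the combination and 2523 to 2825 with DMSO in MV4-11. In MOLM-14 this sum was 1818 to 2054 with the combination and 1887 to 2592 with DMSO. Of the 4 epithelial markers, EPCAM (1.6 to 48.1), CDH1 (1.5 to 47.2) and KRT19 (3.3 to 33.7) were dim throughout and KRT18 was not (487.9 to 1025). The fibroblast marker COL1A1 (227.5 to 579.5) and the B cell marker CD79A (140.3 to 422.2) were not dim either. The part of these markers in the results was not tested. The 3′ to 5′ signal ratio of the GAPDH controls, a sign of RNA quality, was 0.923 to 1.06, and that of the ACTB controls was 1.061 to 1.375, which peaked on combination replicate 3 of MV4-11. With 3 arrays on each side, the smallest p of an exact permutation test is 0.1, and p-values therefore come from the fits over all probe sets.

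All 45 measured members were expressed above the median probe set (mean log2 signal 6.13), between 7.42 and 14.29 as a mean over the 24 arrays. In MV4-11, the mean log2 signal over the 45 was 10.43 to 10.50 on the ABT-869 arrays, 10.06 to 10.09 with SAHA, 9.54 to 9.62 with the combination and 10.43 to 10.48 with DMSO. The combination arrays lay below all SAHA arrays, and these below all DMSO and ABT-869 arrays. In MOLM-14, the values were 10.81 to 10.91 with ABT-869, 10.20 to 10.39 with SAHA, 10.17 to 10.29 with the combination and 10.75 to 10.88 with DMSO. There the SAHA and combination arrays overlapped, and both lay below the ABT-869 and DMSO arrays, which overlapped in turn. These means depend on the scaling of the arrays. The median signal of the tested probe sets was 61.2 to 65.1 on the SAHA arrays and 75 to 80.6 on the combination arrays of MOLM-14. In MV4-11 it was 80.4 to 87.8 and 78.5 to 98.7. Results with the arrays centred on their medians are given below. In bulk RNA of this kind, fewer cells in mitosis and less RNA of these genes per cell cannot be told apart.

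**Figure D1:**
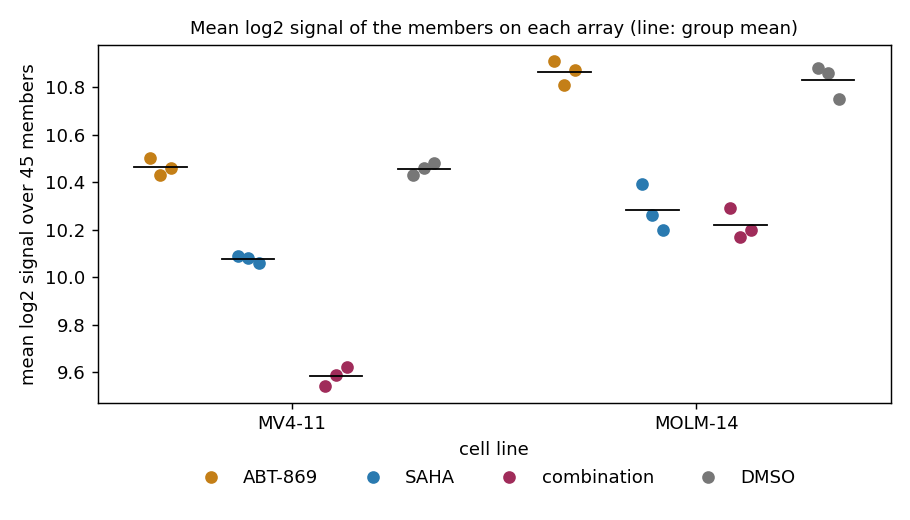
Mean log2 signal over the 45 measured members (vertical axis, log2 of the linear signal) on each of the 24 arrays, by cell line, with ABT-869, SAHA, the combination and DMSO from left to right. Points are arrays and lines are group means. At the deposited scaling, the 3 combination arrays of MV4-11 (9.54 to 9.62) are the lowest, while in MOLM-14 the SAHA and combination arrays share 1 range.

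With ABT-869 alone, no member was called in either line. In MV4-11, 0 of 45 were lower and 0 higher, where 0.491% of all probe sets were lower and 0.372% higher, and 4 and 3 members had an unadjusted p under 0.05. The median log2 change was −0.01, against 0.05 over all probe sets. In MOLM-14, 0 of 45 were lower and 0 higher, where 0.0146% and 0.00183% of all probe sets were called, and 1 and 4 members had an unadjusted p under 0.05. Here and below, only members were counted at the unadjusted threshold. These counts therefore have no share of all probe sets beside them and cannot show an excess. CENPN, which reads the CENP-A nucleosome, had signals of 1142, 1200 and 1027 with ABT-869, against 1607, 1457 and 1712 with DMSO in MV4-11. In MOLM-14 it had 2408, 2642 and 2065 with ABT-869, against 2022, 1881 and 1719 with DMSO. The arrays did not overlap in either line, below DMSO in MV4-11 and above it in MOLM-14, at log2 changes of −0.50 (adjusted p = 0.15) and 0.34 (adjusted p = 0.645). The difference between these changes, MV4-11 minus MOLM-14, was −0.84 with a standard error (SE) of 0.171 (adjusted p = 0.0438), and it was the only member called in this comparison of the lines, where 0.194% of all probe sets were lower and 0.157% higher. That call was lost when 20 of the 24 arrays were each left out in turn, and when the arrays were centred on their medians. It rests on the brightest of 4 CENPN probe sets. The 3 dimmer ones were not called with ABT-869 in either line. They changed by 0.13, −0.10 and −0.40 in MV4-11 and by 0.41, −0.00 and −0.44 in MOLM-14.

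With the combination in MV4-11, 27 of the 45 members fell and none rose, where 4.05% of all probe sets were lower and 4.89% higher. The median log2 change was −0.75, against −0.02 over all probe sets, and 17 of the 27 fell at least 2-fold. The falls reached every complex except Mis12. All 4 genes of the centromeric nucleosome and its deposition fell, as did 4 of 11 of the inner network, both of the KNL1 complex, 3 of 4 of Ndc80, 2 of 3 of Ska, 1 of 2 of the RZZ complex, both corona genes, 4 of 6 checkpoint genes, 3 of 4 of the chromosomal passenger complex, 1 of 2 shugoshins and the centriole gene CENPJ. The median change by complex ranged from −1.41 for the corona genes and −1.39 for the passenger complex to −0.25 for Mis12. Fitted on these groups alone, 14 members passed, and 15 passed without the 5 arrays that stood apart.

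HJURP, the chaperone that deposits CENP-A, had the largest fall. It gave 453, 404 and 377 with the combination, against 2242, 1913 and 1634 with DMSO. With ABT-869 it gave 1815, 1669.8 and 1814, and with SAHA 1238, 1047 and 1050.5. The combination arrays lay far below every other MV4-11 array, with means of 411 ± 38.5 and 1929.6 ± 305 for the combination and DMSO (SD, n = 3 each) and a log2 change of −2.22 (SE 0.15, adjusted p = 0.000158). CENPA itself, the histone that marks the centromere, fell to 329 ± 125 with the combination, against 859 ± 100.3 with DMSO, a log2 change of −1.45 (SE 0.265, adjusted p = 0.0105). Both members of the Mis18 complex, which prepares the centromere for new CENP-A, fell as well. OIP5 had 538, 559 and 513 with the combination, against 969.9, 1172 and 1075 with DMSO, and MIS18A had 1199, 1224 and 1042, against 1898, 1729 and 1954. Neither overlapped its DMSO arrays, with OIP5 at 0.502 times its DMSO level (adjusted p = 0.00277) and MIS18A at a log2 change of −0.69 (adjusted p = 0.0241). The MIS18A call was lost without any 1 of the 3 DMSO arrays or of combination replicates 1 and 3 (adjusted p up to 0.0802).

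Of the 11 inner network genes, 4 fell. CENPH and CENPK, which belong to the same subcomplex, fell most. CENPH had 599, 834 and 814 with the combination, against 2523, 2752 and 2458 with DMSO, a log2 change of −1.80 (SE 0.167, adjusted p = 0.000503). CENPK had 725, 691 and 779.8, against 1421, 1725 and 1760.2, a log2 change of −1.16 (SE 0.16, adjusted p = 0.00296). Both sets of combination arrays lay below all DMSO arrays. CENPN (−0.86) and CENPU (−0.71) fell as well, CENPN with 782, 949.8 and 902 under the combination. Their further probe sets were dimmer and not called, 3 of CENPN (−0.42, −0.52 and −1.38, adjusted p = 0.278, 0.227 and 0.197) and 2 of CENPU (−0.44 and −0.11, adjusted p = 0.251 and 0.741). CENPM, a further partner of CENPH and CENPK, had 408, 520.4 and 421 with the combination, against 449, 446 and 458 with DMSO. Its arrays overlapped, with a log2 change of −0.01 (SE 0.129, adjusted p = 0.971). CENPW, the brightest gene of the network and a histone-fold partner of CENP-T, had 3568, 3396 and 3543, against 4592, 4605 and 4399. Its arrays were separate, but the change of −0.37 did not pass (adjusted p = 0.0621). The other network genes that did not pass, CENPC, CENPI, CENPL, CENPO and CENPQ, had changes from −0.77 (CENPI) to −0.25 (CENPO), and a second probe set of CENPL did pass at −0.72 (adjusted p = 0.00486).

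The Mis12 complex, which links the inner network to the outer kinetochore, had no called gene in MV4-11. MIS12 had 913, 1112 and 1064 with the combination, against 1024, 900.2 and 1173 with DMSO, and NSL1, the brightest of the complex, had 3305, 3335 and 3959, against 4007, 3986 and 4324. All 3 NSL1 combination arrays were below the DMSO arrays and those of MIS12 overlapped them, with log2 changes of −0.22 (adjusted p = 0.327) for NSL1 and 0.00 when rounded (adjusted p = 0.998) for MIS12. DSN1 had 358, 395 and 499, against 625, 597 and 567, a log2 change of −0.53 (SE 0.153, adjusted p = 0.0661) with no overlap of the arrays.

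Of the microtubule-binding Ndc80 complex, 3 of 4 genes fell. NDC80, which holds the microtubule-binding head, had 428, 508 and 483 with the combination, against 1630.1, 1527 and 1547 with DMSO. SAHA alone gave 921, 1142 and 1035 and ABT-869 alone 1272, 1618 and 1257. The combination arrays were below every other MV4-11 array, with a log2 change of −1.73 (SE 0.145, adjusted p = 0.000334) against DMSO. Its partner NUF2 had 810.1, 895 and 819 with the combination, against 2499, 2686 and 2731 with DMSO, a log2 change of −1.65 (SE 0.113, adjusted p = 0.000168) with no overlap. On the side that docks on the inner kinetochore, SPC25 had 425, 372 and 452, against 729.9, 739.5 and 809.6, and fell by 0.87 on the log2 scale (adjusted p = 0.00331). SPC24, its partner, had 415, 316 and 475, against 379, 348 and 355, and its change of 0.14 did not pass (adjusted p = 0.72), with the arrays overlapping.

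KNL1, the scaffold for BUB proteins, fell to 458 ± 97.1 with the combination, against 1222 ± 42.1 with DMSO, a log2 change of −1.44 (SE 0.165, adjusted p = 0.00138). ZWINT, its partner, had 6329, 6231 and 7265, against 8828, 9344 and 9102, with separate arrays and the smallest change of the 27 that passed, −0.46 (SE 0.109, adjusted p = 0.0305). Among the microtubule-tracking Ska genes, SKA1 fell by 1.39 on the log2 scale, and SKA2 had 1514, 1611 and 2128, against 2703, 2858 and 2836, a log2 change of −0.69 (SE 0.149, adjusted p = 0.0212) with no overlap. The ZWINT call was lost without any 1 of the 3 DMSO arrays, the 3 SAHA arrays or combination replicates 1 and 2 (adjusted p up to 0.102), and the SKA2 call without any 1 of the DMSO arrays or combination replicates 1 and 2 (up to 0.0722). SKA3 did not pass (−0.60, adjusted p = 0.119). KNTC1, the Rod subunit of the RZZ complex that recruits dynein, had 1030, 1136 and 1032 with the combination, against 1969.9, 2236 and 2196 with DMSO, and fell to 0.5 times its DMSO level (adjusted p = 0.00143), whereas ZW10 of the same complex had a change of −0.29 (adjusted p = 0.284). At the fibrous corona, CENPF had 1319, 1433 and 1490.3, against 3327, 3192 and 3019, with separate arrays and a log2 change of −1.17 (SE 0.124, adjusted p = 0.00096). The kinesin CENPE fell to 291 ± 60.2, against 906 ± 149 with DMSO (−1.65, adjusted p = 0.00244).

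Of the checkpoint genes, those for the kinases BUB1 and TTK and for BUB1B and MAD2L1, which block CDC20, fell, and those for BUB3 and MAD1L1 did not pass. BUB1 had 702, 748 and 705 with the combination, against 2149, 2086 and 1988 with DMSO. It gave 1874, 1871 and 1832 with ABT-869 and 1386, 1463 and 1454 with SAHA, so that its 4 groups did not overlap, and the log2 change with the combination was −1.53 (SE 0.1, adjusted p = 0.000158). BUB1B and TTK changed by −1.34 and −1.28. MAD2L1 had 3691, 3350.5 and 3804, against 5266, 6131 and 5954, with a log2 change of −0.68 (SE 0.131, adjusted p = 0.0132) and no overlap, and it was not called without DMSO replicate 2 (adjusted p = 0.0557). MAD1L1, which anchors MAD2L1 at the kinetochore, had 2016, 2274 and 2561, against 2831, 2548 and 2614, with overlapping arrays and a change of −0.23 (adjusted p = 0.437). BUB3, the brightest member of all, had 17172, 18986 and 14941, against 19790, 20420 and 19462, and a change of −0.23 (adjusted p = 0.302) at its brightest probe set. The BUB3 probe sets disagreed, since 2 of the others were lower (−0.75 and −0.60, adjusted p = 0.00504 and 0.0121) and the one next in brightness was not called (−0.11).

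Of the chromosomal passenger genes, 3 of 4 fell. CDCA8 (borealin) had 636, 549.9 and 594 with the combination, against 1510, 1570.2 and 1602 with DMSO, a log2 change of −1.40 (SE 0.138, adjusted p = 0.000683). BIRC5 (survivin), which is also an inhibitor of apoptosis, had 828, 976 and 1023, against 2325, 2245 and 2330.5, a log2 change of −1.29 (SE 0.143, adjusted p = 0.00116). Neither gene overlapped its DMSO arrays, and AURKB, the kinase of the complex, fell to 606 ± 41.6, against 1705 ± 82.7 with DMSO (−1.49). INCENP, the scaffold, was dim and variable. It had 178, 221 and 44 with the combination, against 264, 278 and 415 with DMSO, and its change of −1.38 (SE 0.522, adjusted p = 0.149) did not pass although the arrays were separate. Replicate 3, the array with the highest ACTB ratio, was far below the other two. SGO2, a shugoshin, had 1228, 1441 and 1359.9, against 2044, 2065 and 1961, and changed by −0.59 (SE 0.109, adjusted p = 0.0105). CENPJ, which despite its name acts in building centrioles, had 875, 888 and 886, against 1460.2, 1309 and 1292, a change of −0.61 (SE 0.107, adjusted p = 0.00846) with no overlap. SGO1, which protects centromeric cohesin, had a change of −0.75 that did not pass (adjusted p = 0.072).

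**Figure D2:**
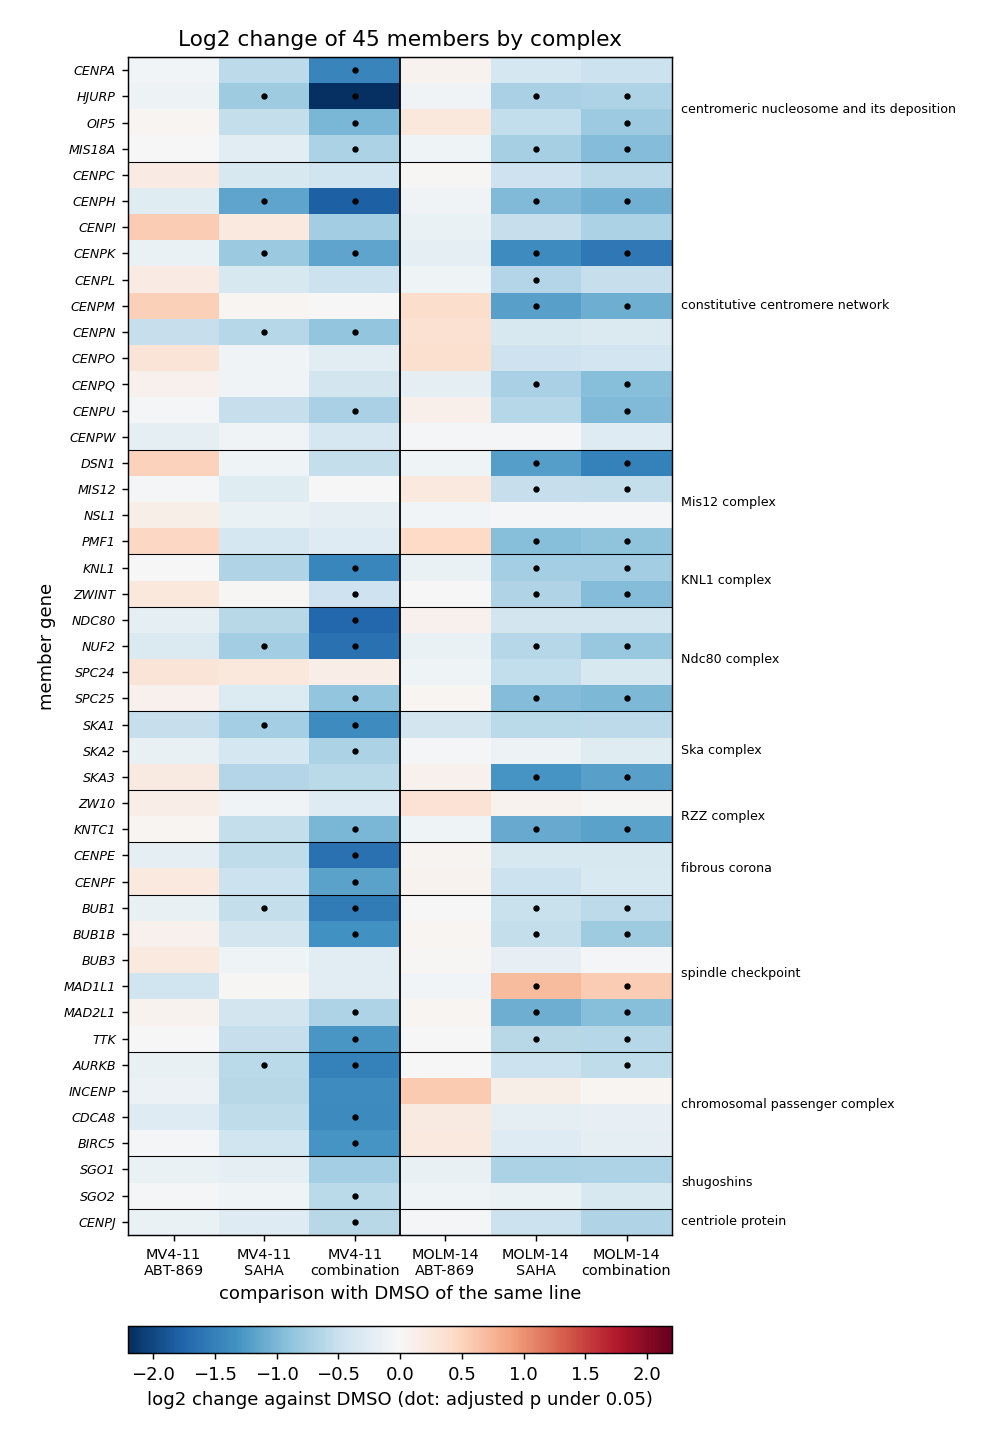
Log2 change against DMSO of the same line for each of the 45 measured members (rows, grouped by complex), with ABT-869, SAHA and the combination in MV4-11 and then in MOLM-14 (columns). Blue is lower and red higher than DMSO, and a dot marks an adjusted p under 0.05 from limma. The column for the combination in MV4-11 holds 27 dots and that in MOLM-14 holds 23, of which 1 (MAD1L1) is red.

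With SAHA alone in MV4-11, 8 of the 45 fell and none rose, where 0.996% of all probe sets were lower and 1.47% higher. At an unadjusted p under 0.05, 25 members were lower, a threshold at which all probe sets were not counted. The 8 were AURKB, BUB1, CENPH, CENPK, CENPN, HJURP, NUF2 and SKA1, from −1.16 for CENPH (adjusted p = 0.0107) to −0.53 for BUB1 (adjusted p = 0.0291). CENPH gave 1376, 1063 and 1055 with SAHA, against 2523, 2752 and 2458 with DMSO, with no overlap. The median change was −0.41, against −0.05 over all probe sets. The number of calls was 0 to 7 with 1 array left out, at 0 without DMSO or SAHA replicate 2, 2 without DMSO replicate 1 or 3, SAHA replicate 1 or 3 or ABT-869 replicate 3, 3 without ABT-869 replicate 1, and 4 and 5 without combination replicates 1 and 2. It was 0 with the arrays centred on their medians and 19 or 20 with the dim range treated otherwise (a floor of 32, dim probe sets left out or limma-trend).

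Against SAHA alone, the combination gave 10 members lower and 0 higher in MV4-11, where 0.566% of all probe sets were lower and 0.183% higher, with a median of −0.46, against 0.04 over all. The 10 were HJURP, NDC80, NUF2, CENPF, BUB1, BUB1B, TTK, AURKB, CDCA8 and BIRC5, from −1.43 for HJURP (adjusted p = 0.00572) to −0.70 for CENPF (adjusted p = 0.045). None belonged to the inner network, to the Mis12, KNL1, Ska or RZZ complexes or to the shugoshins, and CENPJ was not among them. With 1 array left out 2 to 8 passed, at 6 or fewer without any 1 of the DMSO, SAHA or combination arrays, and 0 passed without the 5 arrays that stood apart. Against ABT-869, the combination gave 28 lower and 0 higher (1.81% and 1.89% of all probe sets), with a median of −0.81, and 0 passed without the 5 arrays that stood apart. Set against the summed changes of both single drugs, the combination called no member in MV4-11, where 0.00732% of all probe sets were lower and 0.0146% higher. The departure was below 0 at an unadjusted p under 0.05 for 20 members and above 0 for none. The share of all probe sets at this unadjusted threshold was not counted, so the 20 cannot be set against it. It was largest in size for CENPI (−1.54, adjusted p = 0.264) and HJURP (−1.32, adjusted p = 0.108), and 7 to 11 members passed with 1 fit over 24 arrays, a floor of 32, dim probe sets left out or limma-trend. These 3 comparisons share the combination arrays, and the last also shares the single-drug arrays with the other two.

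**Figure D3:**
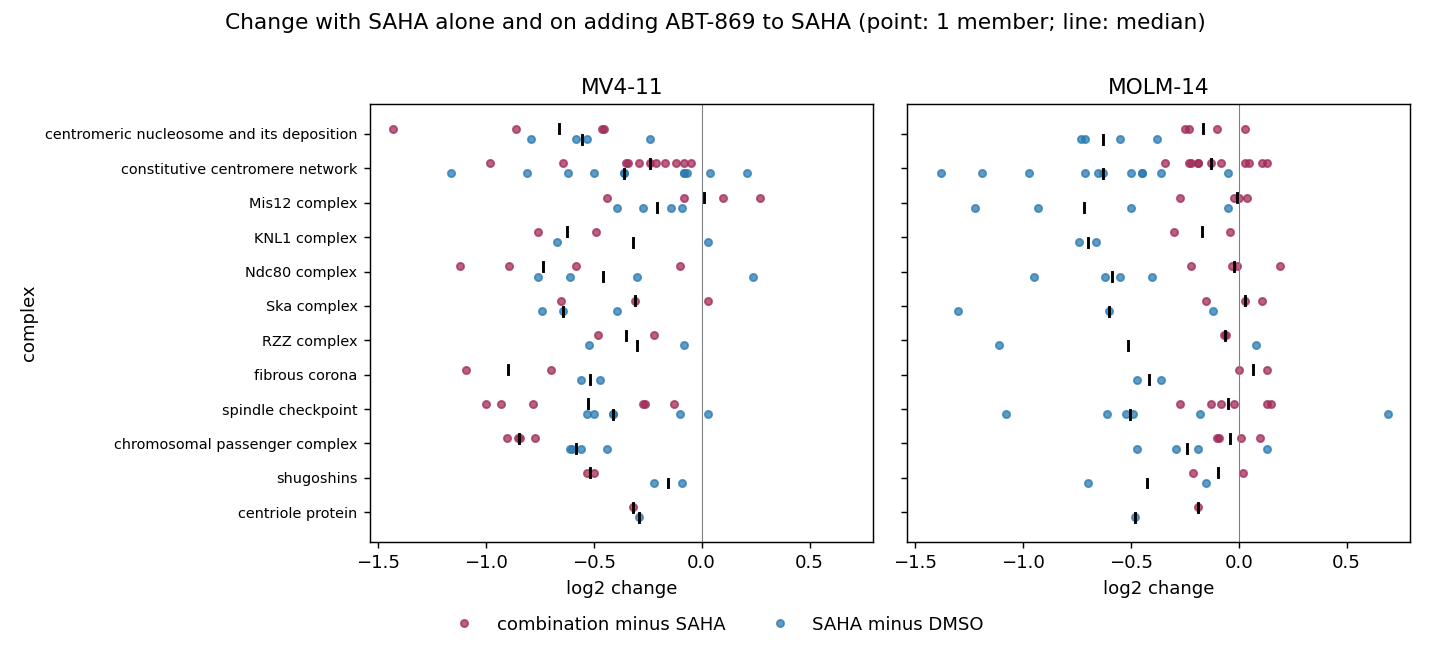
Log2 change of each member (points, by complex in rows) on adding ABT-869 to SAHA (combination minus SAHA) and with SAHA alone (SAHA minus DMSO), in MV4-11 and MOLM-14. Black lines are the medians of a complex. In MV4-11 most members lie below 0 in both steps. In MOLM-14 the combination minus SAHA lies close to 0 at the deposited scaling (median −0.06), and lower with the arrays centred on their medians.

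With SAHA alone in MOLM-14, 20 members fell and 1 rose, where 2.58% of all probe sets were lower and 2.74% higher. The members' median was −0.52, against −0.14 over all probe sets. With the arrays centred on their medians it was −0.27, with 9 lower and 1 higher. With 1 array left out 7 to 20 passed, and the number was 7 or 8 without MOLM-14 DMSO replicate 1 or 2 or MOLM-14 SAHA replicate 2 or 3. With the combination, 22 members fell and 1 rose (2.8% and 3.15% of all probe sets), with a median of −0.58, against 0.03 over all, and 6 fell at least 2-fold. With 1 array left out 12 to 24 passed, 12 and 13 without MOLM-14 DMSO replicates 1 and 2 and 14 and 15 without MOLM-14 combination replicates 2 and 3. None passed in a fit of the 2 groups alone. By complex, 3 of 4 genes of CENP-A deposition fell with the combination, 5 of 11 of the inner network, 3 of 4 of Mis12, both of KNL1, 2 of 4 of Ndc80, 1 of 3 of Ska, 1 of 2 of RZZ, 4 of 6 checkpoint genes and 1 of 4 of the passenger complex, and neither corona gene nor shugoshin passed.

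The 2 largest falls with the combination in MOLM-14 were those of CENPK and DSN1. CENPK had 1018, 671 and 711 with the combination and 905, 909.6 and 873 with SAHA, against 2198, 2237 and 2565 with DMSO. ABT-869 alone gave 2133, 1914 and 2052. The SAHA and combination arrays lay below all others, with log2 changes of −1.57 (SE 0.161, adjusted p = 0.00312) for the combination and −1.38 for SAHA. DSN1 had 398, 372 and 331 with the combination and 415, 441 and 468 with SAHA, against 1046, 1141 and 901 with DMSO, again with no overlap and with log2 changes of −1.49 (SE 0.126, adjusted p = 0.00234) and −1.22. CENPM had 420.3, 314 and 271 with the combination, against 793, 890.1 and 484 with DMSO. Its DMSO replicate 3 was well below the other two, and the change was −1.08 (SE 0.236, adjusted p = 0.0294), a call lost without any 1 of DMSO replicates 1 and 2, SAHA replicates 2 and 3 or combination replicates 2 and 3 (adjusted p up to 0.107). CENPH had 1141, 1164 and 1276, against 2433, 2642 and 2343, a log2 change of −1.05 (SE 0.109, adjusted p = 0.00317). KNTC1 had 1118, 905 and 944, against 2236, 2462 and 1997, a log2 change of −1.17 (SE 0.141, adjusted p = 0.00406), and SKA3 changed by −1.19 (adjusted p = 0.00371).

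Members with mid-sized falls in MOLM-14 came from most complexes. MIS18A had 1614, 1315 and 1435 with the combination, against 2906, 2835 and 2726 with DMSO (−0.96, adjusted p = 0.00529), and OIP5 had 1075, 953 and 1132, against 1827, 1962 and 1714 (−0.80, adjusted p = 0.0125). ZWINT had 8296, 7489 and 7372, against 15004, 16468 and 13603 (−0.96, adjusted p = 0.00672). SPC25 had 692, 584 and 664, against 1318, 1315 and 1193 (−0.98, adjusted p = 0.00597). In each of these the groups were separate. MAD2L1 had 4455, 4277 and 4952, against 8659.8, 8016 and 9399, and changed by −0.93 (SE 0.111, adjusted p = 0.00406). NUF2 had 1822, 1569 and 1720.2, against 3016, 3002 and 3133 (−0.84), HJURP had 1159, 1309 and 1439, against 2164, 1920.1 and 2172 (−0.68), and BUB1 had 2018, 1852 and 1980.5, against 2964, 2940.1 and 2798 (−0.57). All 3 fell with separate groups (adjusted p = 0.01, 0.0154 and 0.0144), and a second BUB1 probe set was not called (−0.21). Without DMSO replicate 1 or combination replicate 2 neither HJURP nor BUB1 was called (adjusted p up to 0.0628 and 0.0606), and BUB1 was not called without DMSO replicate 2 or combination replicate 3 either. MIS12 had 984, 981 and 971, against 1398, 1492 and 1328, and fell by 0.52 on the log2 scale (adjusted p = 0.0295). The MIS12 call was lost without any 1 of DMSO replicates 1 and 2, SAHA replicate 3 or the combination arrays (adjusted p up to 0.109), and that of OIP5 without DMSO or combination replicate 2 (up to 0.0558). Apart from these, CENPQ, CENPU, PMF1, KNL1, BUB1B, TTK and AURKB fell, from −0.97 (CENPU) to −0.56 (AURKB). With 1 array left out, the AURKB call was lost without DMSO replicate 1 or 2, ABT-869 or SAHA replicate 2 or 3 or any combination array (adjusted p up to 0.132), and that of TTK without any DMSO array or combination replicate 2 or 3 (up to 0.098). The KNL1 call was lost without replicate 1 or 2 of DMSO or 2 or 3 of the combination (up to 0.089), and that of PMF1 without DMSO replicate 1 or 2 or combination replicate 3 (up to 0.0634). CENPQ was not called without DMSO replicate 1 or combination replicate 2 (up to 0.0557), nor CENPU without DMSO replicate 1 or 2 (up to 0.0532).

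Several genes that fell in MV4-11, among them genes of the outer kinetochore and passenger complex, did not pass in MOLM-14. NDC80 had 1559.6, 1383 and 1434 with the combination, against 2058, 1835 and 1917 with DMSO, and its arrays were separate (−0.41, adjusted p = 0.0524). CDCA8 had 1382, 1446 and 1374, against 1659, 1622 and 1482 (−0.18, adjusted p = 0.48), and BIRC5 had 2881, 2416 and 2659.7, against 2949.6, 3446 and 2685 (−0.19, adjusted p = 0.512). CENPF had 3186, 3379 and 2924, against 4564, 4073 and 3412 (−0.34), and SKA2 had 2747, 2682 and 3016, against 3579, 3326 and 3260 (−0.27). SGO2 had 2074, 2033 and 2081, against 2873, 2591 and 2467 (−0.35), and CENPJ had 1147, 839 and 817, against 1675, 1442 and 1299 (−0.67). None of these 4 passed (adjusted p = 0.308, 0.199, 0.222 and 0.0635), although 2 further probe sets of CENPJ were lower (−0.61 and −1.17). CENPN had 1612, 1521 and 1388, against 2022, 1881 and 1719, with a change of −0.31 (adjusted p = 0.224) at its brightest probe set. A pair of its dimmer probe sets were lower (−1.01 and −1.23, adjusted p = 0.00695 and 0.0069). CENPW had 5181, 5669 and 5082, against 6542, 6569 and 6203 (−0.28), NSL1 had 5430.3, 4568 and 5794, against 5187, 5283 and 5816 (−0.05), and BUB3 had 21870, 19139 and 20549, against 21078, 23765 and 19140 (−0.05). SPC24 had 543, 492 and 392, against 577, 611 and 634 (−0.36), and INCENP had 169.7, 304 and 261, against 352, 205 and 173 (0.04). None of these 5 was called in MOLM-14, and none had fallen in MV4-11 at the probe set used.

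MAD1L1 was the only member that was higher with any treatment. It had 2213, 2576 and 2681 with the combination and 2532, 2729 and 2909 with SAHA in MOLM-14, against 1706, 1596 and 1774 with DMSO. ABT-869 alone gave 1699, 1624 and 1541. Both SAHA-treated groups lay above the other two, with log2 changes of 0.69 (SE 0.116, adjusted p = 0.0145) for SAHA and 0.55 (SE 0.116, adjusted p = 0.0253) for the combination. The call for the combination was lost without any 1 of DMSO replicates 1 and 2 and combination replicates 2 and 3 (adjusted p up to 0.0959), with the arrays centred on their medians (0.50, adjusted p = 0.101) and with the replicate block (adjusted p = 0.0537).

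Against SAHA, the combination called no member in MOLM-14, where 0.00549% of all probe sets were lower and 0.00916% higher, and no member had an unadjusted p under 0.05. The members' median was −0.06, against 0.11 over all probe sets (−0.36 with the arrays centred on their medians, with no call either), and the single changes ran from −0.34 (CENPU, SE 0.166) to 0.19 (SPC24, SE 0.138). Against ABT-869, 26 were lower and 1 higher (3.54% and 4.48% of all probe sets), with a median of −0.61, and 17 passed without MOLM-14 combination replicate 2. Set against the summed single-drug changes, the combination called no member (0.00183% and 0.011% of all probe sets), with 2 below 0 and none above 0 at an unadjusted p under 0.05. These comparisons share arrays as well.

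**Figure D4:**
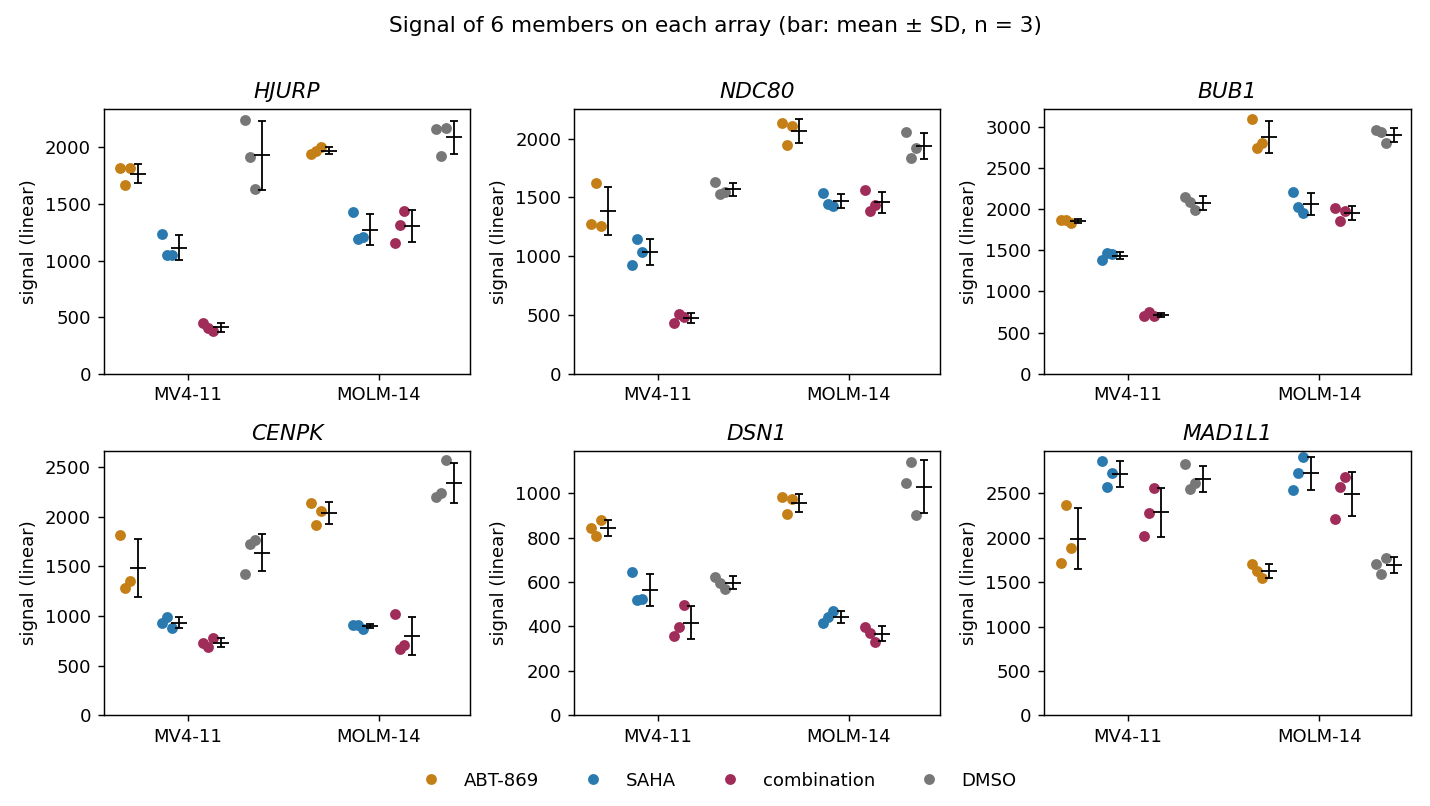
Linear signal (vertical axis, starting at 0) of HJURP, NDC80, BUB1, CENPK, DSN1 and MAD1L1 on each array, by line, with ABT-869, SAHA, the combination and DMSO from left to right. Points are arrays, and bars are means with SD (n = 3). HJURP, NDC80 and BUB1 were lowest with the combination in MV4-11, CENPK and DSN1 were low with SAHA and the combination in MOLM-14, and MAD1L1 was higher there with both.

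The lists of falls in the 2 lines came from separate arrays. With the combination, 16 members fell in both, which is 59.3% of the 27 in MV4-11 and 72.7% of the 22 in MOLM-14. Of all 45 members, 48.9% fell in MOLM-14 and 60% in MV4-11, so the overlap is not far above the members' own shares. Whether it exceeds them was not tested. Over all probe sets, 430 were lower in both, 19.4% of the 2211 lower in MV4-11 and 28.1% of the 1530 lower in MOLM-14. The 16 were HJURP, OIP5 and MIS18A of CENP-A deposition, CENPH, CENPK and CENPU of the inner network, KNL1, ZWINT, NUF2, SPC25 and KNTC1 of the outer kinetochore, the checkpoint genes BUB1, BUB1B, MAD2L1 and TTK, and AURKB. Another 11 passed only in MV4-11 (BIRC5, CDCA8, CENPA, CENPE, CENPF, CENPJ, CENPN, NDC80, SGO2, SKA1 and SKA2) and 6 only in MOLM-14 (CENPM, CENPQ, DSN1, MIS12, PMF1 and SKA3). The remaining 12 fell in neither. Of the 16, AURKB stayed called in MOLM-14 in only 3 of 12 fits with 1 array left out. There TTK stayed called in 7, KNL1 and BUB1 in 8, and HJURP, OIP5 and CENPU in 10. In MV4-11, ZWINT stayed called in 4 of 12, MIS18A in 7 and MAD2L1 in 11. In a fit of the combination and DMSO groups alone, no member passed in MOLM-14. Of the 27 members that fell in MV4-11, 12 had further probe sets, of which 8 of 26 were lower and none higher, and of the 22 in MOLM-14, 6 had further ones, of which 5 of 14 were lower and none higher.

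The difference between the lines was tested directly as an interaction. For the combination, 14 members had a more negative change in MV4-11 than in MOLM-14 and 2 a more positive one, where 3.14% and 3.41% of all probe sets were called. The difference, MV4-11 minus MOLM-14, was −1.54 (SE 0.18, adjusted p = 7.3e-05) for HJURP, −1.32 (SE 0.161, adjusted p = 9.88e-05) for NDC80 and −0.96 (SE 0.119, adjusted p = 0.000107) for BUB1, the 3 members with the smallest adjusted p. The change of CDCA8 differed by −1.22, that of CENPE by −1.29, that of BIRC5 by −1.11 and that of AURKB by −0.93. CENPF, SKA1, NUF2, MAD1L1, CENPH, TTK and BUB1B made up the rest of the 14, between −0.83 and −0.55. The 2 with a more positive change in MV4-11 were CENPM (1.07, SE 0.263, adjusted p = 0.0183) and DSN1 (0.96, SE 0.185, adjusted p = 0.0036). The count of 16 was 12 to 18 with 1 array left out, and 10 (8 lower and 2 higher) with the arrays centred on their medians. For SAHA alone, no member was lower and 4 were higher (0.599% and 0.63% of all probe sets), namely DSN1 (1.13, SE 0.185, adjusted p = 0.00493), CENPM (1.23, SE 0.263, adjusted p = 0.0273), MAD2L1 (0.67, SE 0.153, adjusted p = 0.0396) and ZWINT (0.69, SE 0.158, adjusted p = 0.0405). MAD2L1 had 4546, 4286 and 4233 with SAHA in MV4-11 and 4039, 3889.7 and 4429.9 with SAHA in MOLM-14. ZWINT had 9174, 9154 and 9462 with SAHA in MV4-11 and 11327, 8885 and 8497 with SAHA in MOLM-14. The SAHA count of 4 was 1 to 5 with 1 array left out, at 1 or 2 without any of 14 arrays: each DMSO and SAHA array of MV4-11, ABT-869 replicate 3 of MV4-11, and in MOLM-14 DMSO replicates 1 and 2, all 3 ABT-869 arrays and SAHA replicates 2 and 3. It was 0 with the arrays centred on their medians.

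**Figure D5:**
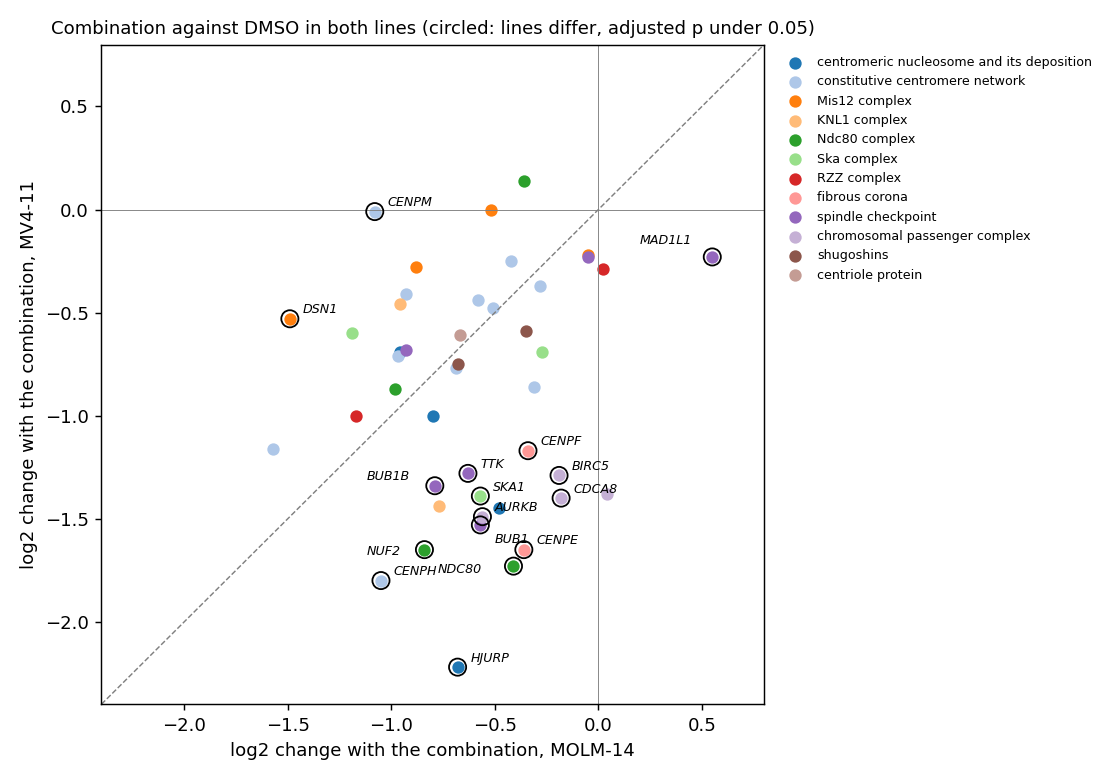
Log2 change with the combination against DMSO in MOLM-14 (horizontal axis) and MV4-11 (vertical axis) for each of the 45 measured members, coloured by complex. The dashed line marks equal change, and circled, named members differ between the lines at an adjusted p under 0.05 from limma. Of the 16 circled, 14 lie below the dashed line and CENPM and DSN1 lie above it.

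The lines also differed without drug. In DMSO cultures 24 members were lower in MV4-11 than in MOLM-14 and 1 was higher, where 4.96% of all probe sets were lower and 5.18% higher. The median difference, MV4-11 minus MOLM-14, was −0.45, against 0.15 over all probe sets. Among the lowest were SKA3 (−0.81), DSN1 (−0.78, SE 0.13, adjusted p = 0.000872), OIP5 (−0.78, SE 0.127, adjusted p = 0.000752), SPC25 (−0.75, SE 0.119, adjusted p = 0.000582) and ZWINT (−0.72, SE 0.112, adjusted p = 0.000472). The MV4-11 arrays of OIP5 gave 969.9, 1172 and 1075 and its MOLM-14 arrays 1827, 1962 and 1714, with no overlap. The higher one was MAD1L1. Its MV4-11 arrays gave 2831, 2548 and 2614 and its MOLM-14 arrays 1706, 1596 and 1774, with no overlap and a difference of 0.65 (SE 0.125, adjusted p = 0.00255). With the arrays centred on their medians 31 were lower and 0 higher (median −0.71), and MAD1L1 was no longer called. The count of 25 was 15 to 26 with 1 array left out, 15 without MV4-11 or MOLM-14 DMSO replicate 1 and 16 without MV4-11 or MOLM-14 DMSO replicate 2. HJURP (−0.12), CDCA8 (−0.02), CENPH (0.06), KNTC1 (−0.06) and AURKB (−0.08) were not called between the lines in DMSO.

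Genes around the module were counted in the same fits. Of 27 further kinetochore genes 25 were measured, and with the combination 6 fell and 4 rose in MV4-11, while 5 fell and 1 rose in MOLM-14. PLK1, the Polo-like kinase, was the largest fall in MV4-11 (−1.66), and CENPX, a histone-fold protein of the inner network, the largest rise (0.99). CENPV fell most in MOLM-14 (−1.81), and DYNLT3, a dynein light chain that binds BUB3, rose (1.04). Of 18 regulators of transcription in the G2 and M phases, 1 fell and 1 rose in MV4-11, with a list median of −0.10. These counts are near the shares of all probe sets (4.05% lower and 4.89% higher). LIN9 of the MuvB core was the fall (−1.30) and E2F8 the rise (0.63). In MOLM-14, 8 fell and none rose, with MYBL2, which joins MuvB to activate late genes, at −2.23, RBL1 at −1.31 and FOXM1, the transcription factor of G2 and M genes, at −0.84. Of 8 genes that serve as a reference for proliferation, 7 fell in MV4-11, with UBE2C at −1.96, TOP2A at −1.62 and MKI67 at −1.45 (list median −1.34), and 4 fell in MOLM-14, with RRM2 at −1.28 and PCNA at −1.10 (list median −0.58). All of these are log2 changes with the combination against DMSO, and the background shares are those given for the members.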

How the data were processed

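RNA from 24 cultures was hybridised to Affymetrix U133 Plus 2.0 arrays, 1 array per culture. The deposited values are linear signal intensities per probe set. How the authors made them is not stated in the sources used here, and an equal trimmed mean on every array (500.1) is what the values themselves show of a scaling. No counts underlie these values. A group mean rests on 3 arrays, and the spread is estimated over all arrays of a fit and moderated over all probe sets. Signals under 1 (2743 values, 0.209%) were raised to 1 and taken to log2. Each line was fitted on its own with limma 3.58.1 in R 4.3.3 (12 arrays, 4 groups), differences between lines over all 24 arrays, with Benjamini-Hochberg adjustment over 54613 probe sets, after the procedure was tested on simulated data. Of 41091 probe sets with 1 gene, 41037 were matched to current symbols by gene ID. Groups came from the sample labels, which call the replicates biological.

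The members, gene lists, tests and alternatives were chosen with earlier results of these data known. Array values are given for the brightest member of each complex, the 2 largest falls and rises with the combination per line, members higher than DMSO, the 3 smallest adjusted p of each line difference, and members whose call opposed most of their complex, and some further members are named with their changes. Alternatives varied the arrays in the fit, scaling, floor, dim filter, probe set choice, variance model, replicate block and single arrays.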

Additional observations from a re-analysis of the deposited data

Results flagged for a closer look

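The response to a drug differed between the lines for 21 results over 19 members, by a test of the difference itself (limma interaction, adjusted p under 0.05, MV4-11 minus MOLM-14 on the log2 scale). With ABT-869, the difference was −0.84 for CENPN (adjusted p = 0.0438) at its brightest probe set. Its dimmer probe sets did not change in opposite directions in the 2 lines with any call. With SAHA, it was 1.23 for CENPM, 1.13 for DSN1, 0.69 for ZWINT and 0.67 for MAD2L1. With the combination, it was −1.54 for HJURP, −1.32 for NDC80, −1.29 for CENPE, −1.22 for CDCA8, −1.11 for BIRC5, −0.96 for BUB1, −0.93 for AURKB, −0.83 for CENPF, −0.82 for SKA1, −0.81 for NUF2, −0.78 for MAD1L1, −0.75 for CENPH, −0.64 for TTK and −0.55 for BUB1B, and with the opposite sign 1.07 for CENPM and 0.96 for DSN1. For MAD1L1 the negative difference stands beside a rise in MOLM-14 and a change in MV4-11 that did not pass. Groups of 3 arrays were not tested for single arrays far from the rest.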

How the results depend on the processing

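Of 152 counts of called members under alternatives other than leaving out 1 array, 104 were within 1.5 times the reported count. A reported count of 0 that stayed 0 was scored as within. In 1 fit over 24 arrays, 2 members were called for ABT-869 (reported 0), 20 for SAHA (8), 20 for the combination minus SAHA (10) and 9 for the departure from additivity (0), all in MV4-11. With a floor of 32 these counts were 3, 19, 21 and 10, with dim probe sets left out 4, 20, 21 and 7, and with limma-trend 2, 20, 22 and 11. The SAHA line difference (4) was 8 with each of these last 3, and SAHA in MOLM-14 (21) was 32 with dim probe sets left out and with limma-trend. With arrays centred on their medians the counts in MV4-11 were 0 for SAHA, 17 for the combination minus ABT-869 (28) and 5 for the combination minus SAHA, that for SAHA in MOLM-14 was 10, and the line differences gave 0 for ABT-869 (1), 0 for SAHA and 10 for the combination (16). The members' median SAHA line difference was then −0.08, against 0.07 with quantile normalization. With the mean of all probe sets of a gene, additivity in MV4-11 gave 2 and the ABT-869 line difference 0.

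With only the compared groups in the fit, no member passed for SAHA, for the combination minus ABT-869 or minus SAHA in MV4-11, or for SAHA or the combination in MOLM-14 (0 each), while the combination gave 14 in MV4-11 (27) and the combination minus ABT-869 gave 8 in MOLM-14 (27). Fewer arrays then estimate the spread. Without the 5 arrays that stood apart, the counts in MV4-11 were 2 for SAHA, 15 for the combination, 0 for the combination minus ABT-869 and 0 minus SAHA, with 13 for SAHA in MOLM-14 and 0 for the ABT-869 line difference. Deviations from the group mean correlated weakly between arrays of the same replicate number, at −0.19 to 0.184 in MV4-11 and −0.0634 to 0.328 in MOLM-14. For MOLM-14 replicate 1 all were positive (0.0431 to 0.176). The reported fits use no pairing. With the replicate block, SAHA gave 0 and the combination minus SAHA 2 in MV4-11, and the line differences gave 0 for ABT-869, 1 for SAHA and 15 for DMSO (25). The cause of these shifts was not tested.

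With 1 array left out, the counts in MV4-11 were 0 to 0 for ABT-869, 0 to 7 for SAHA, 23 to 28 for the combination, 19 to 26 for the combination minus ABT-869, 2 to 8 for the combination minus SAHA and 0 for additivity. In MOLM-14 they were 0 for ABT-869, 7 to 20 for SAHA, 12 to 24 for the combination, 17 to 26 for the combination minus ABT-869 and 0 both for the combination minus SAHA and for additivity. The line differences gave 0 to 1 for ABT-869, 1 to 5 for SAHA, 12 to 18 for the combination and 15 to 26 in DMSO. Over 560 alternative values of the 28 members given by array, 484 stayed on the same side of the threshold, 48 lost a call, 28 gained one and 0 reversed. Of all signals 30.3% were under 32.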
